A study of Zea mays with 20 samples.

Results

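The glutathione transferases described here are 6 maize genes, gst1, gst6, gst12, gst14, gst17 and GST39, each measured by 1 probe set on an Affymetrix maize array. They were selected by gene name, with gst12 measured by the probe set that the selection names, and they are 6 of the 31 genes on the array that carry a gst name and 6 of 17555 maize probe sets. The choice was made with earlier stage results of these arrays in view, in which gst12 had one of the largest differences. The stage differences below are therefore a description and carry no p-value. The selection does not say whether line differences were also in view, and the p-values of line comparisons hold only if they were not. Glutathione transferases join the tripeptide glutathione to reactive or foreign molecules, which marks those molecules for storage in the vacuole. In plants they form a large family, known in maize for herbicide detoxification and, through bz2, for the deposition of anthocyanin, and several members are induced by stress or hormones. Their substrates in the growing stem are mostly unknown.

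Total RNA came from ear internodes, stem segments at the node of the ear, taken from untreated plants in an irrigated field. The lines are recombinant inbred lines (RILs) of the cross F288 x F271, which differ at some of 4 quantitative trait loci that affect lignin and how well the wall is digested. RIL39 and RIL71 carry the unfavorable allele at bin 6.06 and are called the bin 6.06 class, RIL118 carries the unfavorable allele at bin 9.02, and RIL54 and RIL99 carry favorable alleles at all 4 loci and are called the favorable lines. Each line was harvested at early silking and at emerging tassel, with 2 arrays per line and stage and 20 arrays in all. The lines also differ elsewhere in the genome, so the effect of a locus and that of the particular lines cannot be told apart, and the bin 9.02 allele is represented by RIL118 alone. The labels do not say that the 2 arrays of a group came from separate plants or plots, so p-values measure the spread between these arrays, which may be technical.

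On each array, the share of maize probe sets above 5 on the log2 scale was 57.2% to 58.0%. The values were normalized between arrays, so this share says little about array quality. The mean log2 of control probe sets for transcript starts, minus that for transcript ends, ran from -5.97 (RIL39 tassel replicate 2) to -3.75 (RIL54 silking replicate 2). In RIL39 at silking it was -4.29 and -5.91. Its part in the differences below was not tested. Replicate arrays correlated at 0.934 to 0.994, and the lowest value was that of RIL118 at tassel, where replicate 2 had a higher correlation with an array of another group (0.939). RNA amounts in the labels ran from 53.001 to 201.72 ng at silking and from 113.41 to 417.25 ng at tassel. The 8 tested leaf photosynthesis genes had mean log2 levels of 10.16 to 12.86 at silking and 10.59 to 12.76 at tassel, so transcripts used as leaf markers were abundant in the internode. Of 8 kernel genes on the array, 1 passed the filter on low values. In a bulk tissue sample, fewer cells of a type and less RNA per cell cannot be told apart.

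All 6 genes passed the filter, a log2 value above 5 on at least 2 of the 20 arrays. gst1 and gst17 were above 5 on all 20 arrays, GST39 on 19, gst6 on 17, gst12 on 9 and gst14 on 6. Of the other 25 gst genes, 10 passed the filter and 15 did not, and 13 were never above 5, with a highest value of 4.03. The 6 genes therefore come from the part of the family that was measured above the array's low values in this tissue, and gst12 and gst14 passed through their tassel arrays alone.

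The stage pattern divided the genes. gst1, gst6, gst12 and gst14 were lower at silking than at tassel, and gst17 and GST39 were higher, each in the same direction in 5 of 5 lines. The median difference of the 6 genes, silking minus tassel, was -1.77 on the log2 scale, beside 0.12 for all 11033 tested probe sets. For 1 of the 6 genes, gst12, all silking arrays lay below all tassel arrays, beside 4.22% of tested probe sets (and 7.06% with all silking arrays above). The median and this count follow in part from the choice of genes and from the filter, which gst12 and gst14 passed through tassel arrays alone. They do not test the family against the array. In the stage comparison 67.7% of tested probe sets were called, meaning a Benjamini-Hochberg adjusted p under 0.05 in limma, with 40.9% higher and 26.8% lower at silking.

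**Figure D1:**
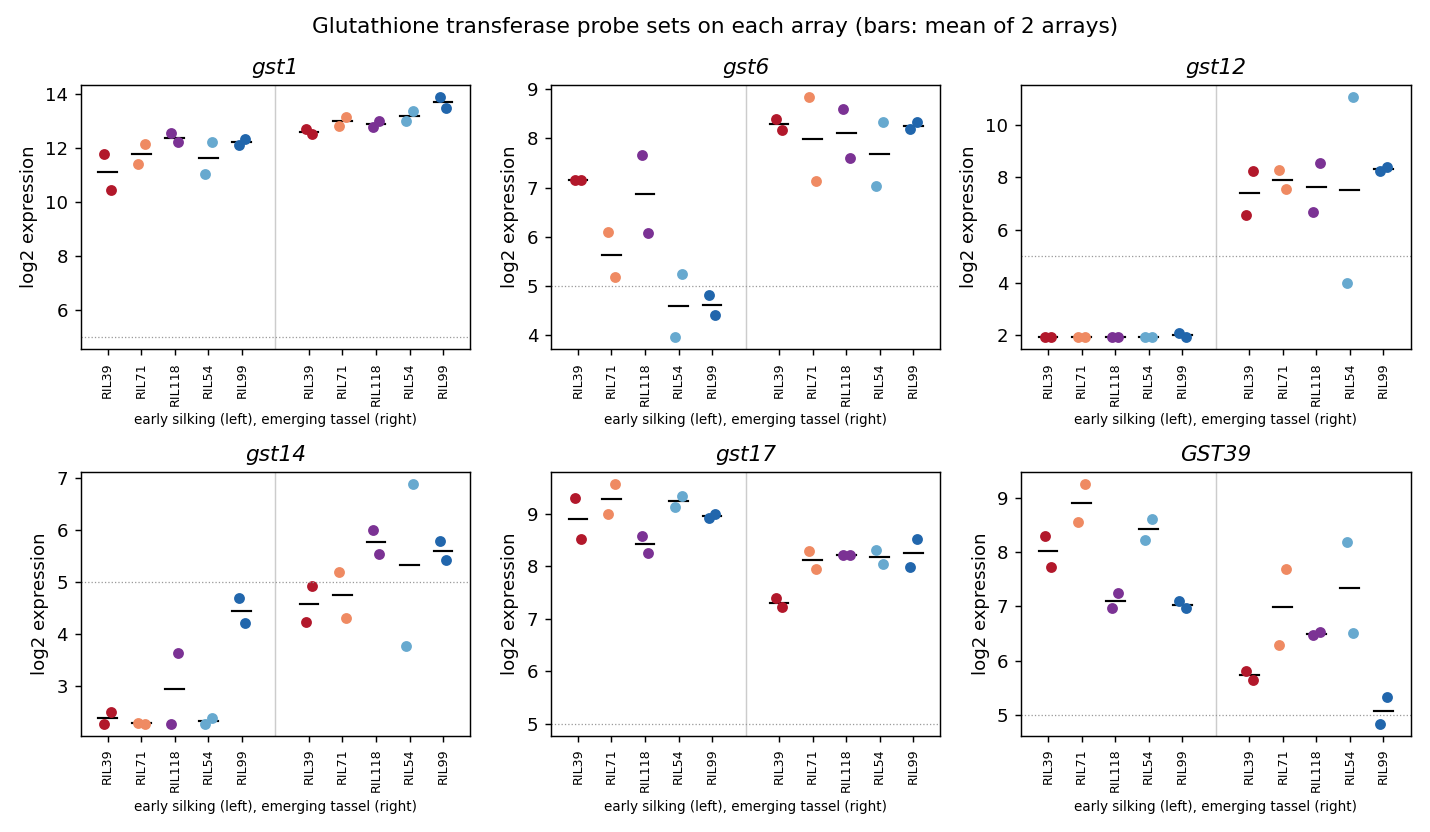
Log2 expression of the 6 genes (vertical axis, a scale per panel) on each of the 20 arrays, with early silking on the left and emerging tassel on the right of each panel, lines along the horizontal axis, and bars for the mean of 2 arrays. The dotted line marks the filter level of 5. The silking values of gst12 lie between 1.92 and 2.07 in every line.

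gst12, a gene on chromosome 1 (gene 541830), was at the floor of the array at silking. Its 10 silking values ran from 1.92 to 2.07 with a median of 1.93, and its 10 tassel values from 3.98 to 11.05 with a median of 8.24. It averaged 1.95 ± 0.04 at silking and 7.75 ± 1.81 at tassel (log2, SD over lines and arrays, n = 10 each). The lowest tassel array still lay 1.91 above the highest silking array. The difference was -5.81 (standard error, SE, 0.68), and it lay between -6.32 and -5.47 in the single lines (SE 1.52). Silking values at the floor make these differences limits, so the lines are not ranked and no fold is given. The SE of 1.52 is the same in every line because the fit shares 1 spread over the 10 groups. That spread includes the RIL54 tassel arrays, which differed by 7.07. With every value below 3 set to 3, the difference was -4.75.

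gst14 (gene 541832, chromosome 1) was low at both stages. At silking it ranged from 2.26 to 4.69 with a median of 2.33, and at tassel from 3.77 to 6.89 with a median of 5.30. It averaged 2.87 ± 0.93 at silking and 5.20 ± 0.94 at tassel, a difference of -2.33 (SE 0.33). The 2 highest silking values, 4.69 and 4.2, were both from RIL99, and they overlap the tassel range. The difference was -1.16 in RIL99 (SE 0.75). The silking values of RIL39, RIL71 and RIL54 lay near the floor, between 2.27 and 2.49, so their stage differences are limits and the lines are not ranked. With the floor of 3 the difference over all lines was -1.85.

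gst6 (gene 541991, chromosome 7) ranged from 3.96 to 7.66 at silking, with a median of 5.66, and from 7.04 to 8.84 at tassel, with a median of 8.25. It averaged 5.78 ± 1.26 at silking and 8.06 ± 0.60 at tassel, a difference of -2.29 (SE 0.30), or 4.88-fold lower at silking. The 3 lowest silking values came from RIL54 and RIL99. The stage difference was -1.13 in RIL39, -2.35 in RIL71, -1.23 in RIL118, -3.09 in RIL54 and -3.64 in RIL99 (SE 0.67).

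gst1 (gene 542366, chromosome 8) encodes glutathione transferase I, a classical herbicide-conjugating enzyme of maize. It was high on every array. Its silking values ran from 10.47 to 12.55 with a median of 12.13, and its tassel values from 12.52 to 13.90 with a median of 13.00. The stages overlapped through 2 arrays, the highest silking one (RIL118, 12.55) and the lowest tassel one (RIL39, 12.52). The means were 11.83 ± 0.66 at silking and 13.08 ± 0.41 at tassel, a difference of -1.25 (SE 0.19), or 2.37-fold lower at silking. In single lines the difference ran from -1.55 in RIL54 to -0.51 in RIL118 (SE 0.44).

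gst17 and GST39 went the other way. gst17 (gene 542543, chromosome 5) ranged from 8.25 to 9.57 at silking, with a median of 9.00, and from 7.22 to 8.51 at tassel, with a median of 8.13. It averaged 8.96 ± 0.41 at silking and 8.01 ± 0.41 at tassel, a difference of 0.94 (SE 0.12), or 1.92-fold higher at silking. The difference ran from 0.20 in RIL118 to 1.59 in RIL39 (SE 0.27).

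GST39 (gene 541848, chromosome 1) ranged from 6.96 to 9.26 at silking, with a median of 7.98, and from 4.83 to 8.18 at tassel, with a median of 6.37. It averaged 7.90 ± 0.81 at silking and 6.32 ± 1.02 at tassel, a difference of 1.57 (SE 0.23), or 2.97-fold higher at silking. In single lines it ran from 0.61 in RIL118 to 2.29 in RIL39 (SE 0.51). The stages overlapped through RIL54 and RIL71, whose highest tassel arrays read 8.18 and 7.69.

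RIL118 had the smallest difference of the 5 lines for gst1, gst17 and GST39. Without RIL118, the stage difference was -1.43 for gst1, -2.55 for gst6, -5.83 for gst12, -2.21 for gst14, 1.13 for gst17 and 1.81 for GST39. Of 9 epidermis markers on the array, 3 were tested and 2 were called lower at silking, fae1 at -2.82 (SE 0.24, adjusted p = 9.19e-07) and ocl3 at -0.70 (SE 0.25, adjusted p = 0.0251), beside 26.8% of all tested probe sets, while gl8 differed by -0.07 (adjusted p = 0.715). The mean log2 level of the 3 was 6.36 to 7.69 at silking and 7.40 to 8.82 at tassel, ranges that overlap. Meristem markers, with 4 of 4 tested, ran from 8.01 to 8.45 at silking and from 7.12 to 8.17 at tassel. All 4 were called in limma, 3 higher at silking and 1 lower, beside 40.9% and 26.8% of tested probe sets. The higher ones were fea2 at 1.61 (adjusted p = 1.34e-05), kn1 at 0.58 and knox7 at 0.43, and lg3 was lower at -0.30 (adjusted p = 0.02). The part of these tissues in the stage differences was not tested.

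**Figure D2:**
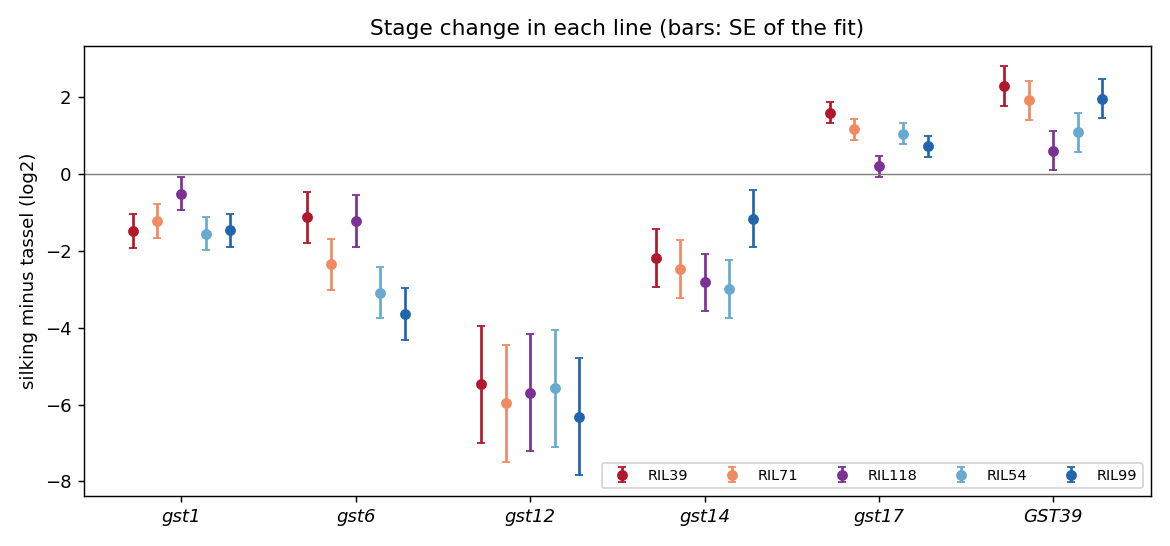
Difference between early silking and emerging tassel (silking minus tassel, log2, vertical axis) of each gene in each of the 5 lines, with bars for the SE of the fit. All values of gst1, gst6, gst12 and gst14 lie below 0 and all of gst17 and GST39 above it, the smallest being 0.20 for gst17 in RIL118.

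Over the 10 combinations of line and stage, neighbours in the order of mean levels mostly overlapped. For gst6, gst12 and gst14, 1 of the 9 neighbouring pairs had arrays that did not overlap, and for gst1, gst17 and GST39, 2 of 9. The same count was not made for all tested probe sets, so it does not set these genes apart from others. In gst12 the gap lay between RIL99 at silking (2.0) and RIL39 at tassel (7.41). In gst6 the pair was RIL71 at silking (5.64) and RIL99 at silking (4.61), but RIL54 at silking, with 3.96 and 5.24, overlapped both. For GST39 the gaps set the lowest groups apart, RIL39 at tassel (5.73) and RIL99 at tassel (5.08).

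The bin 6.06 class was compared with the favorable lines, 2 lines against 2, so a difference cannot be assigned to the allele at that locus. Averaged over both stages, 0 of the 6 genes passed the test in limma, beside 18.3% of all tested probe sets, and 3 had an unadjusted p under 0.05. These were gst6, higher by 0.98 (95% interval 0.26 to 1.70, adjusted p = 0.0603), gst1 at -0.55 (interval -1.02 to -0.08, adjusted p = 0.102) and gst14 at -0.93 (interval -1.74 to -0.12, adjusted p = 0.107). The other differences were -0.14 for gst12 (interval -1.79 to 1.51), -0.25 for gst17 (interval -0.54 to 0.05) and 0.44 for GST39 (interval -0.11 to 0.99). The interval of gst12 spans more than 3 log2 units, so a large difference in either direction would not have been detectable. Its width comes largely from the RIL54 tassel arrays, which differed by 7.07 and are described below. The median difference of the 6 genes was -0.19, and that of all tested probe sets -0.02.

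gst6 stood out at silking. Its silking values were 7.15 and 7.16 in RIL39 and 6.09 and 5.19 in RIL71, against 3.96 and 5.24 in RIL54 and 4.81 and 4.42 in RIL99. The groups overlapped narrowly, since the lower RIL71 array (5.19) fell below the higher RIL54 array (5.24). The mean was 6.4 in the bin 6.06 class and 4.61 in the favorable lines, a difference of 1.79 (SE 0.47, interval 0.77 to 2.81, adjusted p = 0.0321 in limma), or 3.46-fold. Of the 6 genes, 1 was called at silking, beside 8.76% of tested probe sets called and 4.6% called higher. The call did not hold without any single silking array of the bin 6.06 or favorable lines except RIL54 replicate 2 and RIL71 replicate 2, with adjusted p of 0.0685 to 0.132, nor with the RNA amount as a covariate (adjusted p = 0.0789) or without the filter (adjusted p = 0.0682).

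At tassel the values of the classes overlapped. gst6 read 8.40 and 8.17 in RIL39 and 8.84 and 7.14 in RIL71, against 7.04 and 8.33 in RIL54 and 8.18 and 8.33 in RIL99. The difference was 0.17 (interval -0.85 to 1.19, adjusted p = 0.858), and 0 of the 6 genes were called at tassel, beside 14.3% of tested probe sets, with 1 (gst17, at -0.49) at an unadjusted p under 0.05. The change of the class difference between stages was 1.63 for gst6 (SE 0.67, adjusted p = 0.326). It was not called, 0.807% of tested probe sets being called in that test, so a difference between the stages was not shown.

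In RIL118, gst6 was again higher at silking. It read 7.66 and 6.08 in RIL118, both above all 4 values of the favorable lines. The mean was 6.87 in RIL118 and 4.61 in the favorable lines, a difference of 2.27 (SE 0.58, interval 1.01 to 3.52, adjusted p = 0.0191 in limma), or 4.81-fold. This was 1 of the 6 genes, beside 15.9% of tested probe sets called and 8.4% called higher. The comparison shares its favorable arrays with that of the bin 6.06 class, so the 2 differences are not independent. It rested on 1 array in part, being 1.47 (adjusted p = 0.24) without the first RIL118 silking array, and it was also lost without RIL54 silking replicate 1 (adjusted p = 0.0594) or RIL99 silking replicate 2 (adjusted p = 0.055).

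For gst6, the difference of RIL118 at tassel was 0.13 (interval -1.12 to 1.38), and the change of the difference between stages was 2.14 (SE 0.82, adjusted p = 0.121), not called beside 7.84% of tested probe sets. At tassel 0 of the 6 genes were called, none at an unadjusted p under 0.05, beside 16.3%. Over both stages 0 of 6 were called, 1 of them (gst6, 1.2, adjusted p = 0.055) at an unadjusted p under 0.05, beside 20.7%. gst17 at silking was the next closest, with 8.58 and 8.25 in RIL118, against 9.13 and 9.34 in RIL54 and 8.92 and 9.00 in RIL99. All RIL118 values lay below the favorable ones, and the difference of -0.68 (interval -1.19 to -0.17) had an adjusted p of 0.0711.

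The mean log2 level of the 8 leaf markers at silking was 11.71 to 12.86 in the bin 6.06 class and 10.16 to 11.22 in RIL118, against 10.74 to 12.11 in the favorable lines. Over both stages 3 of the 8 were called in the bin 6.06 class, all higher, beside 18.3% of tested probe sets, and 4 of 8 in RIL118, all lower, beside 20.7%. The part of leaf tissue in the gst6 differences was not tested.

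**Figure D3:**
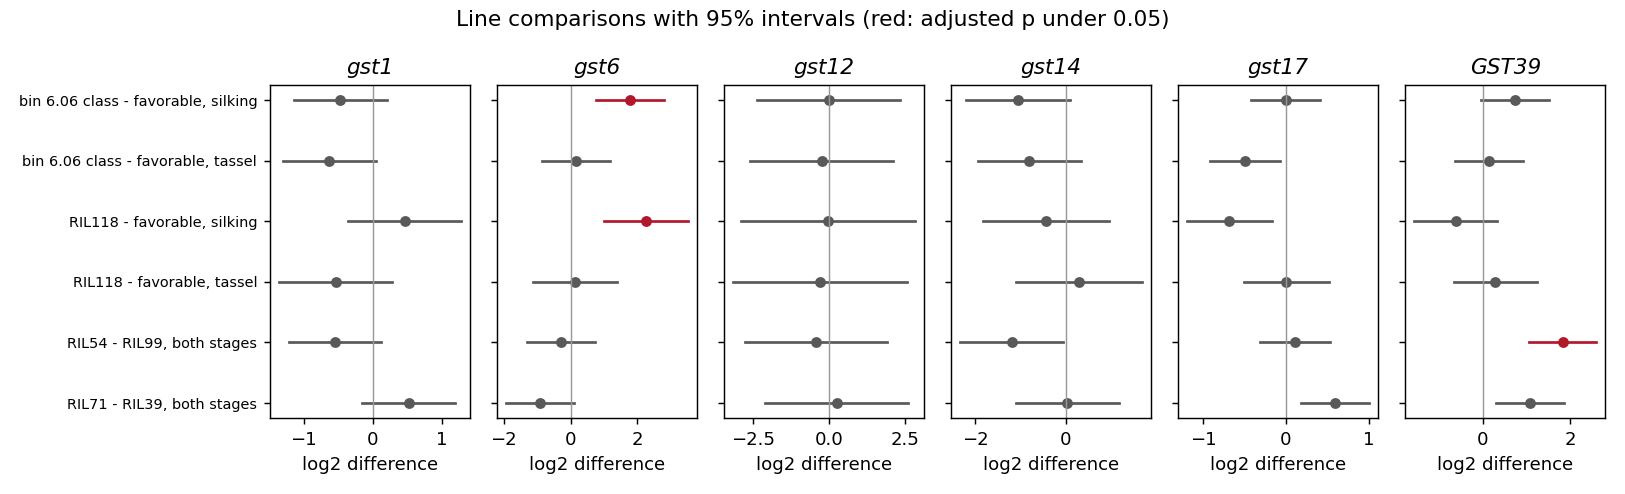
Log2 differences between lines (horizontal axis, a scale per panel) for each gene, with points for the estimate and bars for the 95% interval. Red marks an adjusted p under 0.05, reached by gst6 in both silking comparisons and by GST39 between RIL54 and RIL99.

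Among the 6 genes, GST39 differed most clearly among lines. It was the 1 gene of 6 called in the test of differences among the 5 lines (adjusted p = 0.00395 in limma), beside 44.0% of tested probe sets. An unadjusted p under 0.05 was reached by 4 of the 6. This was not particular to GST39, since 7 of the 10 other tested gst genes were called in the same test, GST25 with an adjusted p of 0.000132. The difference of GST39 lay within the classes. In RIL54 it read 8.23 and 8.61 at silking and 8.18 and 6.51 at tassel, against 7.10 and 6.96 at silking and 4.83 and 5.33 at tassel in RIL99. The lines did not overlap at either stage, and GST39 was 1.83 higher in RIL54 (SE 0.36, interval 1.05 to 2.60, adjusted p = 0.00394), or 3.55-fold, although both lines carry favorable alleles at the 4 loci. It was 1 of 6 genes called between these lines, beside 16.0% of tested probe sets called and 7.99% called higher.

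RIL71 and RIL39 also stood apart in GST39, which read 8.56 and 9.26 at silking and 6.28 and 7.69 at tassel in RIL71, against 8.30 and 7.73 at silking and 5.81 and 5.65 at tassel in RIL39. The difference of 1.07 (interval 0.30 to 1.85) had an adjusted p of 0.0592 and was not called. gst17 was close to the threshold in the same pair, at 0.60 (interval 0.18 to 1.01, adjusted p = 0.0532). Between RIL71 and RIL39, 0 of the 6 genes were called, 2 at an unadjusted p under 0.05, beside 16.6% of tested probe sets. In the test for a stage difference that varied among lines, 0 of 6 were called, 1 (gst17, adjusted p = 0.17) at an unadjusted p under 0.05, beside 6.15%.

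GST39 lies in a group of gst genes on chromosome 1. By gene order in RefSeq (assembly Zm-B73-REFERENCE-NAM-5.0), no annotated gene lies between GST39 and GST38, 1 lies between GST39 and gst30, 1 between GST39 and gst37, and 5 between GST39 and gst32. gst37 and gst32 were never above 5. The neighbours that could be tested, gst30 and GST38, were named after their values were seen, so their p-values do not test this group of genes. Each was called between RIL54 and RIL99, in opposite directions, beside 16.0% of tested probe sets. gst30 read 8.22 and 7.56 at silking and 9.86 and 10.15 at tassel in RIL54, against 6.24 and 5.10 at silking and 5.77 and 5.45 at tassel in RIL99, a difference of 3.31 (SE 0.44, adjusted p = 0.000223). GST38 went the opposite way, with 5.22 and 5.70 at silking and 5.92 and 6.74 at tassel in RIL54, against 7.26 and 6.90 at silking and 8.33 and 8.27 at tassel in RIL99, a difference of -1.80 (SE 0.29, adjusted p = 0.00113).

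GST38 was also lower at silking, by a difference of -1.17 (SE 0.19, adjusted p = 0.000121), the direction opposite to GST39. Across the 10 group means, which share the stage difference, GST39 and GST38 had a Pearson r of -0.902. GST38 was lower in the bin 6.06 class than in the favorable lines, by a difference of -0.94 (SE 0.21, adjusted p = 0.00676), where GST39 was not called. GST38 averaged 4.84 at silking and 7.38 at tassel in RIL39, and 5.38 and 5.80 in RIL71. The favorable means were 5.46 and 6.33 in RIL54 and 7.08 and 8.30 in RIL99. RIL39 thus lay above RIL54 at tassel, and RIL99 had the highest mean at both stages. Probe sequences were not used here, so whether alleles or transcripts of neighbouring genes bind these probe sets unequally was not tested.

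**Figure D4:**
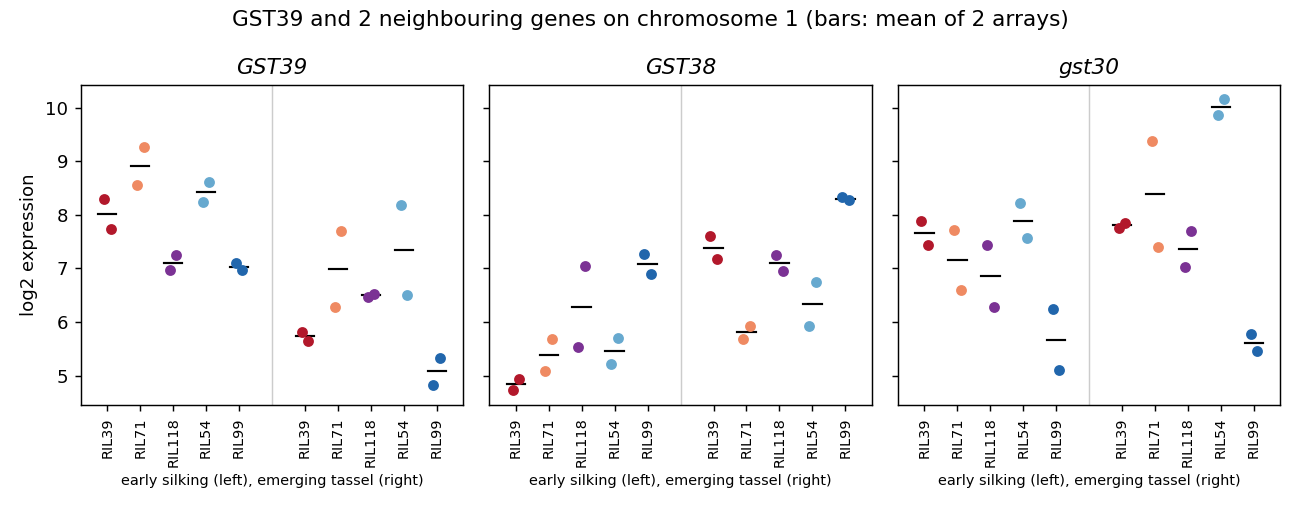
Log2 expression of GST39 and of its neighbours GST38 and gst30 on chromosome 1 (vertical axis) on each array, early silking on the left and emerging tassel on the right of each panel, with bars for the mean of 2 arrays. RIL99 has the lowest tassel values of GST39 and gst30 and the highest of GST38.

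The arrays of RIL54 at tassel disagreed in gst12 and gst14. gst12 read 3.98 on replicate 1 and 11.05 on replicate 2, the lowest and the highest of its 10 tassel values, while the other 4 lines lay between 6.57 and 8.56. The gap of 7.07 was the largest of all 11033 tested probe sets in that group. gst14 read 3.77 and 6.89, likewise the extremes of its tassel values, and 0.417% of tested probe sets had a gap as large as its 3.13 in that group.

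Of the 16 gst genes that passed the filter, these 6 included, 11 were higher on RIL54 tassel replicate 2 than on replicate 1 and 5 were lower. The directions were not counted for all tested probe sets, so these counts do not show a shift of the family. Among the lower ones GST39 read 8.18 on replicate 1 and 6.51 on replicate 2, and gst19 10.51 and 9.68. gst11, which lies next to gst12 with no annotated gene between them, read 2.41 on replicate 1 and 7.38 on replicate 2, the only array on which it was above 5. gst9 on chromosome 9 read 2.95 and 6.77. One probe set of gst13 read 2.65 and 5.14, while its other probe set was never above 2.44. gst10, with 1 annotated gene between it and gst12, read 4.82 and 6.0. The labels give 123.01 ng of RNA for replicate 1 and 417.25 ng for replicate 2, the highest amount of the series, and the part of this amount in the difference was not tested.

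**Figure D5:**
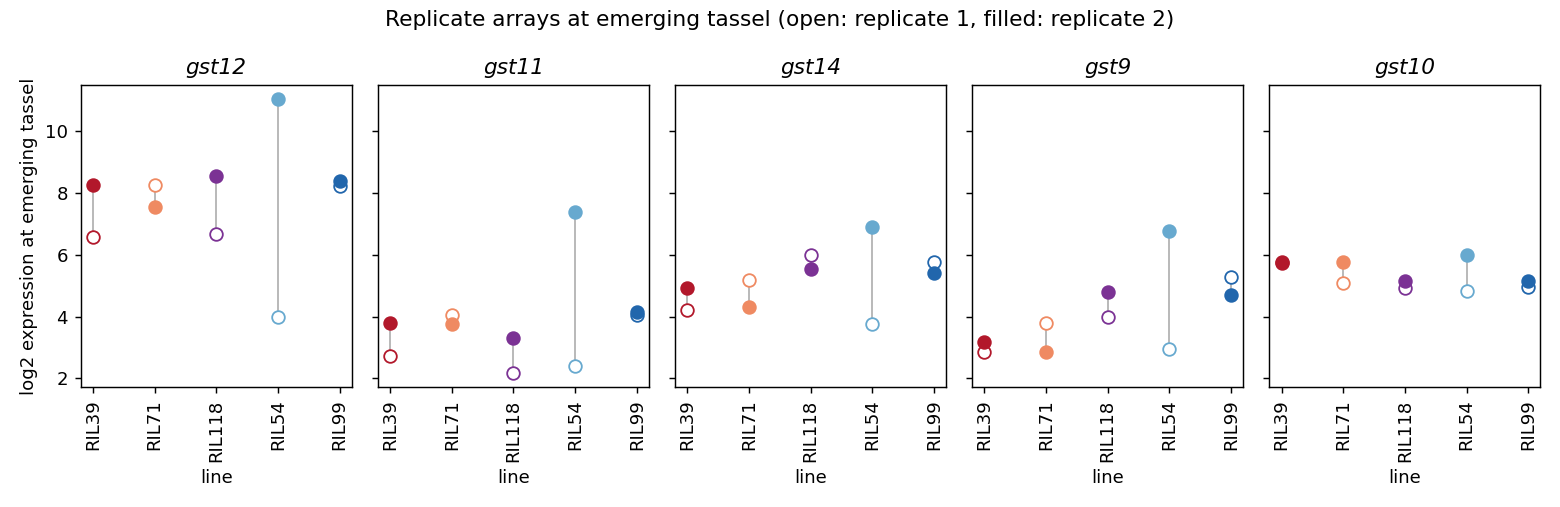
Log2 expression at emerging tassel (vertical axis) of gst12, its neighbours gst11 and gst10, gst14 and gst9 in each line, with open circles for replicate 1 and filled circles for replicate 2. The arrays of RIL54 are the farthest apart in each panel, at 3.98 and 11.05 for gst12.

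Line comparisons of gst12 and gst14 turned on these 2 arrays. Without RIL54 tassel replicate 1, gst12 was lower in the bin 6.06 class than in the favorable lines at tassel, with a difference of -2.02 (adjusted p = 0.0102), and lower in RIL118, with -2.06 (adjusted p = 0.0167). Without replicate 2 instead, the differences turned to 1.51 (adjusted p = 0.0511) and 1.47 (adjusted p = 0.103), and neither was called. Over both stages the bin 6.06 difference of gst12 was -1.02 (adjusted p = 0.0323) without replicate 1 and 0.74 (adjusted p = 0.117) without replicate 2. Without replicate 1, gst14 was lower in the bin 6.06 class over both stages at -1.32 (adjusted p = 0.00151), against -0.93 (adjusted p = 0.107) with all arrays and -0.54 (adjusted p = 0.128) without replicate 2. Without replicate 2, RIL54 was lower than RIL99 in gst12, at -2.20 (adjusted p = 0.00687), and in gst14, at -1.97 (adjusted p = 0.00227). With all arrays those differences were -0.43 (adjusted p = 0.845) and -1.19 (adjusted p = 0.153). The stage difference of gst12 lay between -6.51 and -5.10 when any 1 array was left out.

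gst14 also had a line pattern at silking. It read 2.26 and 3.63 in RIL118 and 4.69 and 4.2 in RIL99, and between 2.27 and 2.49 on the other arrays. Both RIL99 values lay above every other silking value. Against the favorable lines, the bin 6.06 class differed at silking by -1.05 (interval -2.20 to 0.09, adjusted p = 0.302), and RIL54, with 2.27 and 2.38, lay within the range of that class.

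Of 26 other transferases on the array, the 25 with a gst name and 1 matched by another name, 10 were tested. The list is what the choice of the 6 genes left. In the bin 6.06 comparison 4 of the 10 were called, 1 higher and 3 lower, beside 18.3% of all tested probe sets, with a median difference of -0.17. GST25 was higher by 1.78 (SE 0.35, adjusted p = 0.00302), gst41 was lower at -1.32 (SE 0.25, adjusted p = 0.00251) and GST38 is given above. The values of the 2 lines differed. GST25 averaged 9.20 at silking and 9.71 at tassel in RIL39 and 5.57 and 6.71 in RIL71, against 6.70 and 7.49 in RIL54 and 6.39 and 3.49 in RIL99. gst41 averaged 5.4 at silking and 5.51 at tassel in RIL39 and 7.25 and 7.82 in RIL71, against 8.2 and 8.35 in RIL54 and 7.63 and 7.08 in RIL99. RIL71 thus lay below RIL54 in GST25 at both stages, and in gst41 its tassel mean lay between those of the favorable lines. In RIL118, 2 of 10 were called, beside 20.7%, GST25 higher by 1.66 (SE 0.42, adjusted p = 0.0165) and gst19 lower at -1.16 (SE 0.30, adjusted p = 0.0181). GST25 averaged 7.83 at silking and 7.52 at tassel in RIL118, and its tassel mean lay near that of RIL54. At silking 5 of the 10 were lower than at tassel and 0 were higher in limma (2 higher, gst19 and gst10, at an unadjusted p under 0.05), beside 26.8% of all tested probe sets lower and 40.9% higher. The median was -0.47, beside 0.12 for all tested probe sets. One of the 5, gst9, was above 5 on 2 arrays alone, both at tassel, so the filter favoured its call.

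Of genes that make, recycle or use glutathione in the list, all 4 on the array were tested. At silking 3 were higher, beside 40.9% of all tested probe sets, and the median of the 4 was 0.38. gsh2, glutathione synthetase, was higher by 0.86 (SE 0.09, adjusted p = 5.34e-06), gor1, a glutathione reductase, by 0.44 (SE 0.13, adjusted p = 0.0093) and gsh1, which makes the glutathione precursor, by 0.31 (SE 0.12, adjusted p = 0.0375). The fourth, glx1, differed by 0.02 (adjusted p = 0.749). In the bin 6.06 class 1 of the 4 was lower, gsh1 at -0.43 (SE 0.13, adjusted p = 0.0416), beside 18.3% of all tested probe sets called. In RIL118 0 of 4 were called in limma, beside 20.7%, with 1 (gsh1 at -0.39, adjusted p = 0.114) at an unadjusted p under 0.05.

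Of 6 genes for peroxide and superoxide removal, 5 were tested. In the bin 6.06 comparison 0 were called in limma, beside 18.3% of all tested probe sets, with 3 at an unadjusted p under 0.05. In RIL118 3 were called, beside 20.7% of all tested probe sets. The catalase CAT3 was lower at -0.86 (SE 0.24, adjusted p = 0.0256), the catalase cat1 higher by 0.38 (SE 0.12, adjusted p = 0.043) and the superoxide dismutase sod3 lower at -0.55 (SE 0.18, adjusted p = 0.0457). Of 5 anthocyanin and flavonoid genes, 1 was tested, a2, which acts late in anthocyanin synthesis. It was lower in the bin 6.06 class at -0.84 (SE 0.22, adjusted p = 0.0168), beside 18.3% of all tested probe sets called.

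By Pearson r over the 10 group means, among 836 probe sets with 1 named gene, the patterns most like each gene were as follows. These values describe 10 points that share stage and line. gst1 was closest to 4CL, a 4-coumarate CoA ligase of phenylpropanoid synthesis (0.969), and to IRL, named as isoflavone reductase-like (0.953). gst6 was closest to b-70, a chaperone of the endoplasmic reticulum (0.989), and to ivr2, a soluble acid invertase (0.949). gst12 was closest to LPE1, a permease (0.990), and to expA4, an expansin (0.976). gst14 was closest to pdh2 (0.907) and LPE1 (0.879), gst17 to nfa101 and SRP1A (0.949 each), and GST39 to the aldehyde dehydrogenase ALDH10A5 (0.958) and to pdi3, a protein disulfide isomerase (0.896).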

How the data were processed

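The values are log2 expression per probe set, deposited by the authors and made with GCRMA per the submitters' processing notes. GCRMA corrects background, normalizes between arrays and summarises probes, and no version was given. They ran from 1.37 to 15.2 and were used unchanged. The number of arrays limits the precision.

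The 179 control probe sets were left out, and 11033 of 17555 maize probe sets passed the filter (log2 above 5 on at least 2 of 20 arrays). The fit used limma 3.58.1 (R 4.3.3), with 10 group means, 10 residual and 2.37 prior degrees of freedom, and p-values were adjusted over all 11033. Line contrasts weighted lines and stages equally. With 2 lines a class, an exact test over lines could not go below p = 0.333. Tests of class difference by stage were added after seeing the data. The fit was tested on simulated data.

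The genes and the related lists were chosen with earlier results of these data known. Every probe set of the 6 genes is named, the 2 most alike genes of each, and up to 3 called genes per list with the smallest p. The neighbours GST38, gst30, gst37, gst32, gst11 and gst10, and gst9, gst13, glx1 and gl8, were named after their values were seen. Genes were named from the platform annotation and RefSeq. Replicate numbers did not pair arrays (correlation of replicate differences -0.436 to 0.512 over 45 group pairs, 16 above 0.1).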

Additional observations from a re-analysis of the deposited data

Results flagged for a closer look

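Of 36 groups of 4 to 10 arrays checked for 1 array far from the rest, 4 were picked out, and chance alone picks about 1 in 20. gst6 in the favorable lines at tassel was lowest on RIL54 replicate 1, at 7.04, with the nearest other array at 8.18. gst12 was highest at silking on RIL99 replicate 1, at 2.07, both among all 10 silking arrays (nearest 1.95) and among those of the favorable lines (nearest 1.94). gst14 in the bin 6.06 class at silking was highest on RIL39 replicate 2, at 2.49, with the nearest other array at 2.28. The gst12 and gst14 values lie at the floor of the array.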

How the results depend on the processing

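With the line as a random block (estimated correlation 0.303), added after seeing the data, 174 probe sets were called for the bin 6.06 class and 155 for RIL118, against 2023 and 2279 without it. Array weights gave 1299 probe sets for the stage by line interaction (679 without). They gave 5 of the 6 genes among the 5 lines, beside 5502 of 11033 probe sets, and 1 (gst6) for the bin 6.06 class, beside 2207. The RNA amount as covariate gave 2 genes among lines, beside 4334 probe sets, and 1 (gst14) for the bin 6.06 class, beside 1835. Quantile normalization gave 2 genes among lines, beside 4830 probe sets. Leaving out RIL118 gave 1 (gst6) for the bin 6.06 class, beside 2233. Leaving out 1 array gave 0 to 3 of the 6 genes and 1507 to 2281 probe sets for the bin 6.06 class, 0 to 1 and 1301 to 2925 for RIL118, 1 to 4 and 3706 to 5454 among lines, and 0 to 1 and 320 to 1195 for the interaction. With the replicate number as a block, the counts of probe sets were 1899, 2105, 4588 and 567, and those of the 6 genes 0, 0, 1 and 0, in the same order. The block changed no call on the 6 genes. The causes were not tested. GST39 was called between RIL54 and RIL99 (adjusted p 0.000589 to 0.0193) and among lines (0.000622 to 0.0144) under every setting that tested it. With the RNA amount as covariate, the stage difference was -4.61 for gst12 and -1.61 for gst14. The stricter filter left out gst12 and gst14, so it gave no value for them. Each gene has 1 probe set, so no alternative probe set was run. Signals at the floor limit gst12 and gst14 at silking.

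Of the 60 differences between lines or classes of the 6 genes, 24 changed direction under at least 1 alternative, and none of these was called with all arrays or in the setting where its direction changed. The differences of a gene are not independent. As gst12 was at the floor at silking, its differences over both stages and between stages come from its tassel arrays. Leaving out 1 array moved the bin 6.06 difference of gst12 between -1.02 and 0.74 over both stages, between -0.06 and 0.01 at silking and between -2.02 and 1.51 at tassel, that of gst6 at tassel between -0.26 and 0.59, and that of GST39 at tassel between -0.27 and 0.56. The RIL118 difference over both stages ran from -0.2 to 0.11 for gst1, from -1.05 to 0.71 for gst12, from -0.46 to 0.32 for gst14 and from -0.38 to 0.04 for GST39. At tassel it ran from -0.36 to 0.62 for gst6, from -2.06 to 1.47 for gst12, from -0.49 to 1.08 for gst14 and from -0.14 to 0.7 for GST39, and at silking from -1.12 to 0.24 for gst14. RIL54 minus RIL99 ran from -0.61 to 0.03 for gst6, from -2.2 to 1.34 for gst12 and from -0.03 to 0.24 for gst17. RIL71 minus RIL39 ran from -0.18 to 0.67 for gst12 and from -0.18 to 0.26 for gst14. The change of the bin 6.06 difference between stages ran from -0.18 to 0.49 for gst1, from -1.54 to 2.0 for gst12 and from -1.03 to 0.53 for gst14, and that of RIL118 from -1.51 to 2.02 for gst12 and from -1.52 to 0.05 for gst14. Quantile normalization turned the RIL118 difference of gst1 to 0.01, the floor of 3 turned the bin 6.06 change between stages of gst14 to 0.09, and the RNA amount as covariate turned those of gst12 to -0.45 for bin 6.06 and -0.43 for RIL118.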
